A study of Mus musculus with 18 samples.

Results

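The 5 mRNA positions described here lie in Hk1, Ldhal6b, Sord, Slc2a5 and Cox6b2, genes of sugar and energy metabolism that are active in male germ cells. They were taken by gene name from the deposited mRNA table, which lists 251 positions in 235 genes, and each gene holds 1 of them. The study profiled 5-methylcytosine (m5C) in RNA from the testis of adult Nsun7 knockout mice and adult WT mice, and polyadenylated RNA was sequenced in 3 libraries per genotype. Bisulfite treatment turns unmethylated cytosine into uracil, and the m5C level of a position is the percentage of its reads that still carry C. Unmethylated cytosines that escaped conversion also count as m5C. The labels name no allele, strain or exact age, nor do they state whether each library is a different animal. The p-values therefore rest on variation between libraries that may be only technical. Nsun7 has no position in the table, so the deletion itself was not checked.

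A sperm cell swims on ATP that dynein motors spend along its tail, and it makes that ATP both by glycolysis in the tail and by respiration in the mitochondria of the midpiece. Germ cells often use gene copies or isoforms of metabolic enzymes made only, or mainly, in the testis. Hexokinase 1, the product of Hk1, phosphorylates glucose in the first step of glycolysis and has a germ cell isoform. Ldhal6b encodes a lactate dehydrogenase-like protein expressed in testis. Slc2a5 encodes the fructose transporter GLUT5, Sord encodes sorbitol dehydrogenase, which turns sorbitol into fructose, and Cox6b2 encodes a testis isoform of a cytochrome c oxidase subunit. In mRNA, m5C is set mainly by NSUN2 and NSUN6. The series title calls NSUN7, a protein of the same family, catalytically inactive on RNA, and the genotypes are compared to ask whether m5C depends on it.

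Among the 5 genes Ldhal6b had the highest m5C level and Cox6b2 the lowest in both genotypes, with Hk1, Slc2a5 and Sord between them. The knockout means ran from 24.1% at Ldhal6b through 15.4% at Hk1, 15.3% at Slc2a5 and 13.3% at Sord to 5.75% at Cox6b2. The WT means ran from 27.0% at Ldhal6b through 16.6% at Hk1, 10.1% at Sord and 8.21% at Slc2a5 to 5.91% at Cox6b2. Ldhal6b was above Hk1 in 6 of 6 libraries, by 6.45 to 10.2 points in the knockout and by 7.85 to 12.2 points in WT. Sord and Slc2a5 were each above Cox6b2 in every library, although the WT ranges of Slc2a5 and Cox6b2 overlapped. Hk1, Slc2a5 and Sord did not differ beyond their spread in the knockout, where the difference of Hk1 and Slc2a5 ran from -5.82 to 4.70 points over the libraries. In WT, Hk1 stood above Sord by 4.45 to 10.2 points, and Sord and Slc2a5 overlapped.

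**Figure D1:**
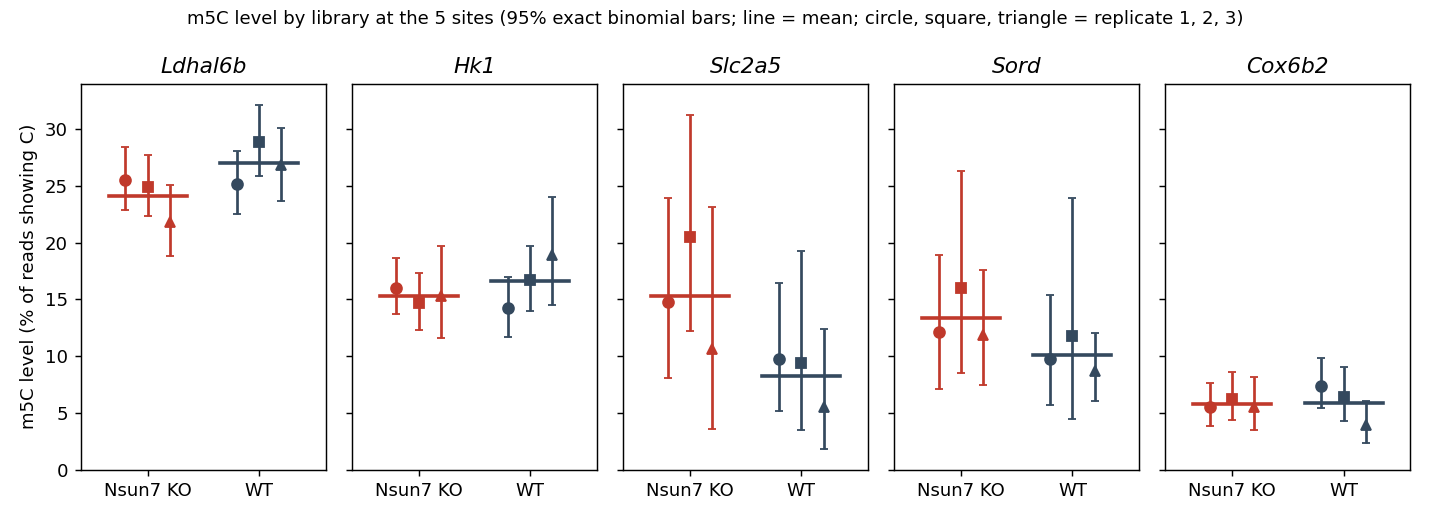
m5C level in percent of reads (y axis) at the 5 sites, with 3 Nsun7 knockout libraries left of 3 WT libraries in each panel. Bars are 95% exact binomial intervals and lines are group means: 24.1% in the knockout and 27.0% in WT at Ldhal6b are the highest. The intervals are widest at Slc2a5 and Sord, the sites with the fewest reads summed over libraries, except in WT replicate 3 of Sord (379 reads).

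Ldhal6b lies on the minus strand of chromosome 17 at position 5468786 (GRCm39, ENSMUSG00000101959). Its level was 25.5%, 24.9% and 21.8% in knockout replicates 1 to 3, against 25.2%, 28.9% and 26.8% in the WT libraries, at coverage of 693 to 1007 reads. The groups overlapped by 0.309 points, since knockout replicate 1 was above WT replicate 1, and knockout replicate 3 was the lowest of all. The mean was 24.1% ± 2.01 in the knockout and 27.0% ± 1.86 in WT (SD, n = 3), and the difference of -2.90 points spanned -7.14 to 0.309 when each of the 9 knockout and WT pairs was taken. The adjusted p was 0.893 in a quasi-binomial model of C reads fitted to all 251 sites, with Benjamini-Hochberg adjustment. The 95% interval of the difference in limma was -6.94 to 1.14 points. Without knockout replicate 3 the difference was -1.75 points, and without WT replicate 2 it was -1.92. This position combined a high level with deep coverage. It ranked 6 of 251 by summed coverage, and 11 sites had at least the coverage of Hk1. Of these 11, Ybx3 had a higher level, at 32.0% in each genotype, and was singled out after its value was seen.

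Hk1 lies on the minus strand of chromosome 10 at position 62128150 (GRCm39, ENSMUSG00000037012). The knockout libraries had 16.0%, 14.7% and 15.3%, against 14.2%, 16.7% and 18.9% in WT, at coverage of 280 to 885 reads. All 3 knockout values lay inside the WT range. The means were 15.4% ± 0.675 in the knockout and 16.6% ± 2.36 in WT (SD, n = 3), and the difference of -1.26 points spanned -4.23 to 1.84 over the 9 pairs. The adjusted p was 0.972 in the quasi-binomial model, and the limma interval was -5.03 to 2.52 points. WT replicate 3, with the highest level and the fewest reads, weighed on this value: the difference was -0.101 points without it, and -2.46 without WT replicate 1.

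Cox6b2 lies on the minus strand of chromosome 7 at position 4754947 (GRCm39, ENSMUSG00000051811). Its levels were 5.55%, 6.22% and 5.49% in the knockout, against 7.39%, 6.39% and 3.94% in WT, at coverage of 401 to 613 reads. The knockout libraries again lay inside the WT range. The means were 5.75% ± 0.405 in the knockout and 5.91% ± 1.77 in WT (SD, n = 3), and the difference of -0.156 points turned to 0.585 without WT replicate 1 and was -1.14 without WT replicate 3. The adjusted p was 0.972 in the quasi-binomial model. The limma interval was -3.38 to 3.07 points, wide beside a level of 5.91%. These levels rest on 19 to 43 C reads per library.

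Among the 5 genes, Slc2a5 and Sord were the ones whose level was higher in all 3 knockout libraries than in any WT library. This held at 5.18% of the 251 sites, and the reverse at 6.37%. Both had been picked out by that difference in earlier results of these data, so it is given as a description. Slc2a5 lies on the plus strand of chromosome 4 at position 150228122 (GRCm39, ENSMUSG00000028976). It had 14.8%, 20.5% and 10.6% in the knockout, against 9.76%, 9.38% and 5.49% in WT, from 5 to 16 C reads per library. The mean was 15.3% ± 4.96 in the knockout and 8.21% ± 2.36 in WT (SD, n = 3), 7.10 points apart, and the nearest libraries were 0.882 points apart. The counting intervals overlapped widely, at 3.55% to 23.1% in knockout replicate 3 (5 of 47 reads) and 5.14% to 16.4% in WT replicate 1 (12 of 123 reads). Without knockout replicate 2 the difference was 4.50 points.

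Sord lies on the plus strand of chromosome 2 at position 122095438 (GRCm39, ENSMUSG00000027227). It had 12.1%, 16.0% and 11.9% in the knockout, against 9.76%, 11.8% and 8.71% in WT. The nearest libraries, knockout replicate 3 and WT replicate 2, were 0.0997 points apart, and that WT value came from 6 of 51 reads with a counting interval of 4.44% to 23.9%. The mean was 13.3% ± 2.32 in the knockout and 10.1% ± 1.55 in WT (SD, n = 3), a difference of 3.25 points, or 1.92 without knockout replicate 2. At both genes knockout replicate 2 was the highest of the 6 libraries, as it was at 42 of 251 sites (16.7%).

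Of the 251 sites, 5.18% had all 3 knockout libraries above all WT libraries and 6.37% had them all below. Among the 5 genes these counts were 2, Slc2a5 and Sord, and 0. The quasi-binomial model called 0 of 251 sites (0%), and 20 had an unadjusted p under 0.05. limma on the levels also called 0, with 14 at an unadjusted p under 0.05. The level was higher in the knockout at 2 of the 5 genes and at 101 of 251 sites, and the median difference was -0.156 points over the 5 and -0.395 points over all sites. A difference as high as that of Slc2a5 occurred at 7 sites, and one as high as that of Sord at 31.

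The spread between replicates was set beside read counting. Pearson dispersion, which is 1 when libraries of a genotype vary as much as counting reads alone would give, was 1.63 at Ldhal6b, 1.51 at Cox6b2 and 1.09 at Hk1. It was 0.919 at Slc2a5 and 0.362 at Sord, and its median over all sites was 0.891. Each value rests on only 6 libraries, and whether the sites differ in it, or exceed counting error, was not tested.

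Level and coverage were related across the table, and the genes stood at different places in it. Over the 251 sites Spearman's rho of summed coverage and mean level was -0.575, a description across sites that share the same libraries. Every listed site had at least 4 C reads in each WT library, which sets a minimum WT level that rises as coverage falls. A shallow site could still have a low WT level: Slc2a5 had 8.21% in WT, against a median of 10.1% over all sites. The part of this floor in the rho was not tested. The floor held for WT alone: the lowest count in a knockout library was 1, and 31 of 251 sites had a knockout library with fewer than 4. The counts of higher and lower sites and the median difference over all sites were taken from this table, and the part of the floor in them was not tested. The 5 sites had at least 5 C reads in every library of either genotype. Hk1 ranked 11 and Cox6b2 13 of 251 by summed coverage, while Sord ranked 94 and Slc2a5 173. By level Ldhal6b ranked 55 in the knockout and 54 in WT. Hk1 ranked 94 in the knockout and 91 in WT, and Cox6b2 ranked 192 in the knockout and 193 in WT. Sord ranked 112 in the knockout and 126 in WT, and Slc2a5 ranked 95 in the knockout and 154 in WT.

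**Figure D2:**
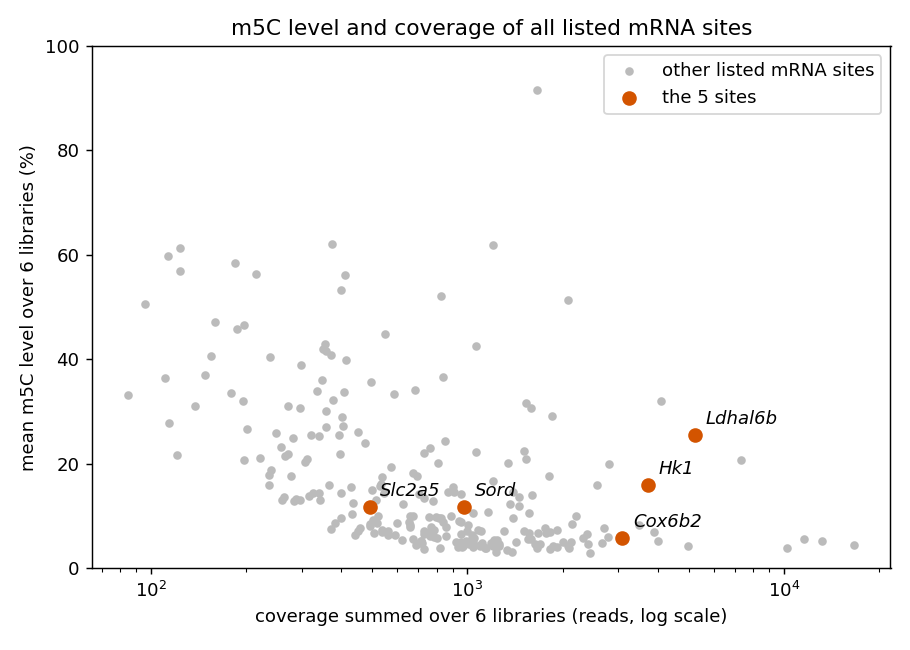
Mean m5C level over 6 libraries (y axis, percent) against coverage summed over 6 libraries (x axis, log scale) for the 251 listed mRNA sites. Levels are lower at deeper sites, with a Spearman rho of -0.575, and Ldhal6b lies above most sites of like depth.

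Coverage at a position gives how many converted reads reached it. The genes were not chosen by coverage itself, but coverage is the denominator of the m5C level. The difference that had picked out Slc2a5 and Sord was taken from that level, so their coverage is not independent of the choice. Coverage depends on RNA level, capture and mapping, and in whole testis fewer cells of a type and less RNA per cell cannot be told apart. The listing of sites was not free of coverage. C reads grow with coverage, so the floor of 4 C reads in WT favours sites with more WT reads. The part of this floor in the coverage differences was not tested. The coverage of Slc2a5 was 88, 78 and 47 reads in the knockout, against 123, 64 and 91 reads in WT. These values overlapped, and edgeR's quasi-likelihood test over all sites gave a log2 fold change of -0.52 ± 0.25 (SE) with an adjusted p of 0.988. Sord had 132, 75 and 177 reads in the knockout, against 164, 51 and 379 in WT, a log2 fold change of -0.71 ± 0.75 (SE, adjusted p = 0.988 in edgeR). At Sord the value turned to 0.28 without WT replicate 3. That fit kept knockout replicate 3, and Sord had the most reads in replicate 3 of both genotypes. Within same-numbered pairs the log2 ratio of scaled coverage was -0.646, -0.00560 and -0.838 at Slc2a5, and -0.476, 0.265 and -0.983 at Sord. With replicate number as a block in edgeR, the log2 fold change was -0.50 at Slc2a5 and -0.56 at Sord. The adjusted p in that fit was 0.226 at Slc2a5 and 0.170 at Sord. No site had a lower one, and the adjustment can give several sites the same value.

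At the 3 deeper sites the fold changes of coverage lay closer to 0. Ldhal6b had 1006, 1007 and 693 reads in the knockout, against 947, 833 and 758 in WT, and a log2 fold change of -0.04 ± 0.12 (SE). Cox6b2 had 613, 547 and 401 reads in the knockout, against 582, 454 and 482 in WT, and a log2 fold change of -0.09 ± 0.12 (SE). Hk1 had 885, 803 and 326 reads in the knockout, against 718, 706 and 280 in WT, and a log2 fold change of 0.08 ± 0.37 (SE). Its direction turned without knockout replicate 1 (-0.0875), knockout replicate 2 (-0.0108) or WT replicate 3 (-0.21). The adjusted p in edgeR was 0.988 at each of these 3. With the replicate block in edgeR the log2 fold change was -0.04 at Ldhal6b, -0.09 at Cox6b2 and 0.11 at Hk1. The adjusted p values of that fit were 0.954, 0.899 and 0.870. After scaling with edgeR's TMM factors, 4.38% of the 251 sites had more coverage in all 3 knockout libraries than in any WT library and 3.59% had less, and 0 of the 5 genes were among either. edgeR called 0 of 251 sites for coverage (0%), with 5 at an unadjusted p under 0.05, and DESeq2 called 0, with 0 at an unadjusted p under 0.05.

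At Hk1 and Ldhal6b replicate 3 held the fewest reads in both genotypes. After TMM scaling, Hk1 and Ldhal6b were lowest in replicate 3 of both genotypes, like 28.7% of all sites, and Sord was highest there in both, like 27.5%. Of the lists of cell type markers, 1 of 8 Leydig genes, 1 of 9 Sertoli genes, 2 of 7 spermatocyte genes and 0 of 16 spermatid genes had a site. Their log2 fold changes of coverage were 0.31 ± 0.24 at Insl3 (Leydig), 0.28 ± 0.13 at Amhr2 (Sertoli), 0.24 ± 0.13 at Adam2 and -0.34 ± 0.31 at Piwil1 (both spermatocyte; SE), none of them called by edgeR. Their part in the coverage of the metabolic genes was not tested.

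**Figure D3:**
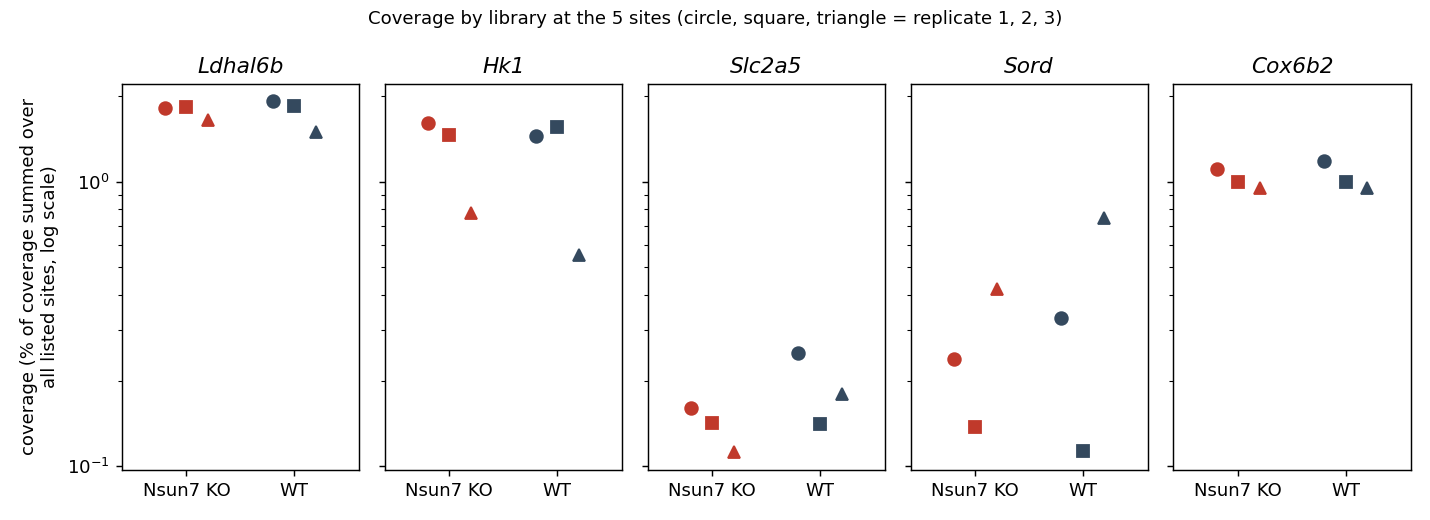
Coverage of the 5 sites as a percentage of the coverage summed over all listed sites (y axis, log scale), with 3 Nsun7 knockout libraries left of 3 WT libraries in each panel. In this unit, without TMM scaling, Hk1, Ldhal6b and Cox6b2 are lowest and Sord is highest in replicate 3 (triangles) of both genotypes. Slc2a5 overlaps between genotypes.

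Other genes of energy supply were taken from lists written by hand for this comparison, which do not hold every such gene. Of the lists, 1 of 26 glycolysis genes had one (Hk1), 2 of 25 genes of lactate and pyruvate handling (Ldhal6b and Mpc2), 1 of 15 sugar transporters (Slc2a5), 1 of 9 polyol and fructose genes (Sord) and 0 of 21 genes of the TCA cycle. Respiratory chain genes added Cox7c. The list named phosphotransfer, of 17 genes, added Ak8 and also Gpd2, which is a dehydrogenase and transfers no phosphate. Of these 10 sites, 5 of them outside the 5 genes, 4 were higher and 6 lower in the knockout and the quasi-binomial model called 0. Mpc2, a subunit of the mitochondrial pyruvate carrier, had 19.4%, 24.6% and 22.1% in the knockout, against a mean of 24.0% ± 3.46 in WT (SD, n = 3), a difference of -1.98 points. Ak8, an adenylate kinase of cilia and sperm tails, had 31.7%, 29.4% and 34.2% in the knockout, against 31.7%, 27.8% and 28.5% in WT. In both the genotypes overlapped, with adjusted p of 0.972 and 0.896 in the quasi-binomial model.

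Gpd2, the mitochondrial glycerol-3-phosphate dehydrogenase, had 5.94% ± 0.681 in the knockout and 7.02% ± 0.863 in WT (SD, n = 3). Cox7c, a subunit of the same respiratory complex as Cox6b2, had 2 adjacent sites that share most of their reads. The site at 86194776 of chromosome 13 had 4.77% ± 0.615 in the knockout and 5.76% ± 1.98 in WT (SD, n = 3). The site at 86194777 had 5.31% ± 2.03 in the knockout and 5.25% ± 0.713 in WT (SD, n = 3). The 3 sites of the respiratory chain list had means of 4.77% to 5.91% in either genotype. They come from Cox6b2 and Cox7c only, and Gpd2, from another list, lay above that range.

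**Figure D4:**
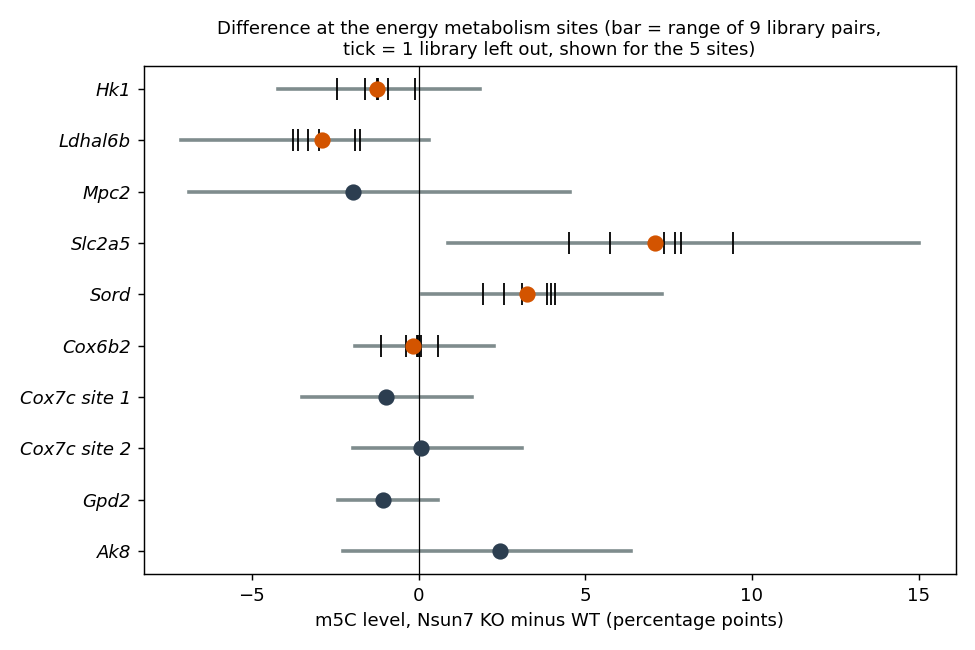
Difference in m5C level, Nsun7 knockout minus WT, in percentage points (x axis) at the 10 energy metabolism sites. Points are differences of means, bars the range over 9 pairs of libraries and ticks the values with 1 library left out: only the bars of Slc2a5 and Sord lie wholly above 0, that of Sord by 0.0997 points.

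Likeness of pattern was measured as the Euclidean distance between the 6 library levels. For Slc2a5 and Sord these are the same levels by which they had been picked out, so their nearness is a description that follows in part from the choice. The site nearest to Slc2a5 was Sord, at 6.70 points, followed by Rbm28 at 8.19 and Rpp30 at 8.78. The nearest to Sord was Rbm28, at 4.68 points, then Penk at 5.27. Rbm28 had 12.0% in the knockout and 8.11% in WT. Hk1 was nearest to Nlrp14 (4.92 points), Rbl2 (4.98) and Gm42918 (6.41), and Ldhal6b to Gm14414 (7.40), Zfp541 (8.21) and 4932414N04Rik (8.29). Cox6b2 was nearest to Pabpc2 (2.46 points), Insl3 (2.97) and Snrpc (3.32), sites of equally low level. Distances grow with the level and with counting error, so they do not rank the 5 genes.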

How the data were processed

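Testis mRNA was measured in 3 Nsun7 knockout and 3 WT libraries. Per the labels' protocols, RNA was captured on oligo-dT beads, bisulfite converted and made into libraries with a stranded kit. The genome build was GRCm39 and reads went through HISAT2, Bowtie2, SAMtools, cutadapt and Trimmomatic, per the submitters' processing notes. Versions, and how sites were chosen, are not given in the sources used here. Coverage and C reads are deposited counts, unnormalized. The deposited level is a fraction, rounded by the authors, within 0.005 of C reads over coverage wherever it is given, with 1 left blank at a site of another gene. Levels were recomputed here as percentages. The sign in the column headed light was read as the strand, which was that of the gene at all 5 sites. Exon and UTR placement was not analysed here. Column mapping left 0 per-sample columns unused.

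Coverage summed over listed sites was 42086 to 55140 per library, with a median of 101 to 149 reads per site. Binomial intervals are exact (Clopper-Pearson, 95%) and cover counting error only, since several reads may stem from 1 molecule. The m5C test was a two-sided quasi-binomial model per site, with libraries of at least 10 reads and at least 2 per genotype, Benjamini-Hochberg adjusted over 251 sites, with a threshold of 0.05. Libraries fitted at 0% gave no degrees of freedom. limma 3.58.1 gave intervals of differences. Coverage was tested with edgeR 4.0.16 (quasi-likelihood, TMM), with DESeq2 1.42.0 as an alternative. The SE of a coverage fold change was derived from edgeR's F statistic, as the absolute log2 fold change over the square root of F. The tests were also run on simulated data, and the outcome is not reported here. Whether they can detect differences of the size seen at the metabolic genes was not shown, so the absence of calls does not exclude such differences. Coverage deviations of same-numbered libraries correlated at 0.513, 0.694 and 0.808, above the limit of 0.1, so replicate numbers were taken as pairing coverage, from the data and not the labels. Of differently numbered libraries, 2 of 6 pairs correlated above it too: knockout 1 with WT 2 at 0.506 and knockout 2 with WT 1 at 0.483. Replicate 3 thus stood apart in both genotypes, while the data hardly tell pair 1 from pair 2.

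The genes, lists and tests were chosen with earlier results of these data known. Named are every site of the 5 genes, every listed site of the energy and marker lists, and the 3 nearest sites to each gene among 249 with at least 10 reads in all 6 libraries. 1 of these nearest sites is not reported here.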

Additional observations from a re-analysis of the deposited data

How the results depend on the processing

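The count of m5C sites called was 0 with a coverage minimum of 5 or 20, with moderated dispersions, limma, Fisher's test on pooled reads or a replicate block, and 0 to 1 with 1 library left out. The 1 call was Asxl1, without knockout replicate 3. The count of coverage sites called was 0 under all alternatives run. With 1 library left out the m5C difference at Cox6b2 turned direction, ranging from -1.14 to 0.585 points, Hk1 from -2.46 to -0.101, Ldhal6b from -3.77 to -1.75, Sord from 1.92 to 4.10 and Slc2a5 from 4.50 to 9.43. The log2 fold change of coverage turned in 5 of 50 values: at Ldhal6b to 0.0157 with library size only, and with 1 library left out at Hk1 (range -0.21 to 0.31) and Sord (range -1.26 to 0.28). The coverage fits with 1 library left out had no replicate block and kept the same-numbered library of the other genotype. m5C residuals of same-numbered libraries correlated at 0.0862, -0.0107 and 0.0812, so the numbers were not taken as pairing m5C, and the replicate block left 0 m5C sites called (22 at an unadjusted p under 0.05, against 20). For coverage the replicate block changed no call, with 28 sites at an unadjusted p under 0.05, against 5. At Slc2a5, with 47 to 123 reads per library, and Sord, with 51 to 379, depth limits the precision most.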
